A study of Homo sapiens with 36 samples.

Results

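DKK1 and 9 genes that answer to Wnt signalling (AXIN2, LGR5, NKD1, RNF43, ZNRF3, ASCL2, NOTUM, SP5 and TCF7) were followed in 2 human colorectal cancer cell lines under chemical imitation of hypoxia. The 10 genes were chosen by symbol from the 60591 genes of the deposited mRNA count table, with earlier results of these data known. All 10 passed the filter on low counts in every fit. The 18 mRNA libraries formed 6 groups of 3 replicates, with each line untreated by either agent (control), given cobalt(II) chloride (CoCl2) at 300 µM, or given an oxyquinoline derivative (OD, 4896-3212 of ChemDiv) at 5 µM, all for 24 h. Both agents are inhibitors of prolyl hydroxylases, the oxygen-dependent enzymes by which hypoxia-inducible factor (HIF) is destroyed in normal air. Caco-2 cells had been kept for 21 days under conditions in which they differentiate into an enterocyte-like layer, whereas for HT-29 no differentiation was described, so line and culture state cannot be told apart. The OD stock was made in dimethyl sulfoxide (DMSO) and the CoCl2 stock in water. Control medium held 0.5 µl of DMSO per ml per the labels, although the treatment label reads as untreated, and the study's methods for Caco-2 state that the CoCl2 medium held DMSO too and give another concentration. A solvent difference between CoCl2 and control therefore cannot be told apart from CoCl2 itself.

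Wnt proteins bind Frizzled receptors and the co-receptors LRP5 and LRP6, which stops the destruction complex of APC, AXIN and GSK3 from degrading β-catenin. β-Catenin then enters the nucleus and switches on target genes together with TCF/LEF factors, and many of these targets encode brakes on the same pathway. In the intestine the pathway maintains the stem cells at the crypt base, and most colorectal cancers, both of these lines included, carry truncating APC mutations that leave it active without ligand.

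Total counts per library ran from 12925719 to 22332639. Levels are given as read counts per library size (CPM), with library sizes adjusted in each line by the TMM method of edgeR, and between genes as the same per kilobase of transcript (RPKM). A gene was called when its false discovery rate (FDR) in edgeR's quasi-likelihood test was under 0.05 and its log2 fold change was over 1 in size. Of the HIF target genes used to check the treatment, CoCl2 raised 7 of 7 tested in Caco-2 and 7 of 8 in HT-29 (9.13% and 17.4% of all genes). OD raised 6 of 7 and 3 of 8 (4.43% and 9.5% of all genes). One of those 3, BNIP3, a mitochondrial protein of hypoxic stress (1.01), fell under the fold limit in DESeq2 (0.99), with RLE factors (0.99), with library size alone (0.88), with a replicate block (0.996), in limma (0.41), and without the first control, the third control, the first OD or the second OD library (0.91 to 0.995). NDRG1, a hypoxia-induced stress gene, was raised in all 4 comparisons with control, on the log2 scale by 2.87 (CoCl2) and 2.46 (OD) in Caco-2 cells and by 5.97 and 2.82 in HT-29 cells. The 5 not called with OD in HT-29 went from control to OD as follows. PDK1 went from 49.9 to 48.1 CPM, EGLN3 from 16.9 to 19.4, ANKRD37 from 0.596 to 0.902, SLC2A1 from 470 to 630 and VEGFA from 439 to 765 CPM. All 6 epithelial markers were present in every group, with a summed level from 4645 to 7974 CPM in Caco-2 and from 4804 to 6179 CPM in HT-29. They did not move alike. EPCAM, CDH1, KRT8 and KRT18 had higher means with each agent in both lines. In HT-29, VIL1 went from 205 CPM in control to 33.6 (CoCl2) and 92.5 CPM (OD), and CDX2 from 12.8 to 4.63 and 8.18 CPM. In Caco-2, VIL1 went from 796 to 443 and 870 CPM, and CDX2 from 154 to 292 and 164 CPM. Of the leukocyte list, PTPRC and CD3E had group means of at most 0.684 CPM and CD14 of at most 4.64 CPM, and the fibroblast and endothelial lists summed to at most 38.7 and 12.9 CPM. The whole leukocyte list summed to 19.9 to 32.1 CPM in Caco-2. In HT-29 it summed to 1082 to 1208 CPM, nearly all of it LYZ, a lysozyme gene that some epithelial cells express. In bulk RNA, fewer cells expressing a gene and less RNA per cell cannot be told apart.

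Promoter sequences were available for 4 of the 10 genes (DKK1, RNF43, SP5 and TCF7), as 6 windows from 250 bases before to 50 bases after a start site. Entries for AXIN2, LGR5, NKD1, ZNRF3, ASCL2 and NOTUM were not used here. The windows are from RefSeq on GRCh38.p14, written 5′ to 3′ on the strand of the gene. Both strands were searched for the TCF/LEF core, written CTTTGAA in its first form, then CTTTGAT and likewise CTTTGTA, and finally CTTTGTT. They were also searched for the HIF core, ACGTG in one form and GCGTG in the other, which also lies within some E-boxes. One window is shown for each of the 4 genes. Capitals mark TCF/LEF cores in DKK1, SP5 and TCF7 and the HIF core in RNF43.
DKK1, chr10:52314031-52314330, plus strand: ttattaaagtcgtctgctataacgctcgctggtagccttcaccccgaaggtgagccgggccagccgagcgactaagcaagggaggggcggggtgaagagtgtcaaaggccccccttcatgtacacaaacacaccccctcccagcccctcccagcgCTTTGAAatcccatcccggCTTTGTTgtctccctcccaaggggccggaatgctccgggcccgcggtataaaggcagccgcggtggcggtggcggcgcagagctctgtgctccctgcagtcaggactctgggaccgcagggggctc
SP5, chr2:170715087-170715386, plus strand: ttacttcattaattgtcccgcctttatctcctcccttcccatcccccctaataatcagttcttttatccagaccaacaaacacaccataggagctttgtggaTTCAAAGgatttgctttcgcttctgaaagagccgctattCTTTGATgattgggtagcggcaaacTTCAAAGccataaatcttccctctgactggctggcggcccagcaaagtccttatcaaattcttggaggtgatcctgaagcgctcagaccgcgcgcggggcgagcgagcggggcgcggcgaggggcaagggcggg
TCF7, chr5:134123368-134123667, plus strand: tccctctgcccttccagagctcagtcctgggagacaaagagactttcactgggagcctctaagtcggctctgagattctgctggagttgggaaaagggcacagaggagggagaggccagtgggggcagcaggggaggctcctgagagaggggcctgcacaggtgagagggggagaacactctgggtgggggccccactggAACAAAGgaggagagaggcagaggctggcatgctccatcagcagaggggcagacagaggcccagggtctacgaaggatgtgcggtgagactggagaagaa
RNF43, chr17:58417485-58417784, minus strand: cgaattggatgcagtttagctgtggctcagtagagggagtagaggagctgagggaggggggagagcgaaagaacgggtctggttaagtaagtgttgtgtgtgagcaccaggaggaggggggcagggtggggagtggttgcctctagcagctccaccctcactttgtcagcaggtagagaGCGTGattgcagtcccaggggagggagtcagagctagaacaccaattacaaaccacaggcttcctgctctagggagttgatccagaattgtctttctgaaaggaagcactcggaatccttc
The DKK1 window held 2 TCF/LEF cores, at -95 and -76 from the start site. The SP5 window held 3, at -148, -109 and -84. One of the windows of TCF7 held 1, at -50, and RNF43 had none. A TCF/LEF core stood in 13.8% of all 35116 promoter windows. The HIF core stood in 48.4% of all windows and, among these 4 genes, was found only in RNF43, at -71. These are matches of letters and say nothing of whether a factor was bound.

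The control cells differed between the lines before any agent was added. HT-29 controls were called higher than Caco-2 controls for AXIN2, RNF43, ZNRF3 and TCF7, and lower for DKK1, LGR5, NKD1 and ASCL2, that is 4 of 10 in each direction beside 21.6% of all 17921 genes tested called higher and 24.2% called lower. The differences were steepest for LGR5 (log2 difference -3.43 ± 0.13, SE; FDR = 4.5e-22) and NKD1 (-3.09 ± 0.11; FDR = 3.94e-23). NOTUM and SP5 were lower in HT-29 by smaller amounts (-0.89 and -0.88), with FDR = 0.00237 and 2.12e-05. Per length, DKK1 stood highest of the 10 genes in both lines, at 50.1 ± 5.93 RPKM (SD, n = 3) in Caco-2 and 17.7 ± 1.01 RPKM in HT-29. Caco-2 controls then held ASCL2 at 6.79 ± 0.306, LGR5 at 5.65 ± 0.435, ZNRF3 at 5.18 ± 0.393 and SP5 at 4.87 ± 0.358 RPKM. LGR5 and ZNRF3, and likewise ZNRF3 and SP5, differed by about 1 SD or less, and NOTUM came last at 1.17 ± 0.097 RPKM. HT-29 controls instead held ZNRF3 at 12.8 ± 0.135, RNF43 at 10.2 ± 0.125 and AXIN2 at 7.36 ± 0.586 RPKM after DKK1. LGR5 at 0.495 ± 0.064 and NOTUM at 0.587 ± 0.105 RPKM did not differ beyond their spread, and NKD1 was lowest at 0.274 ± 0.028 RPKM. That rank rests on the length of 17359 bases used for NKD1. In CPM, NKD1 (4.75) lay above LGR5 (2.59) and NOTUM (1.71) in these controls.

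**Figure D1:**
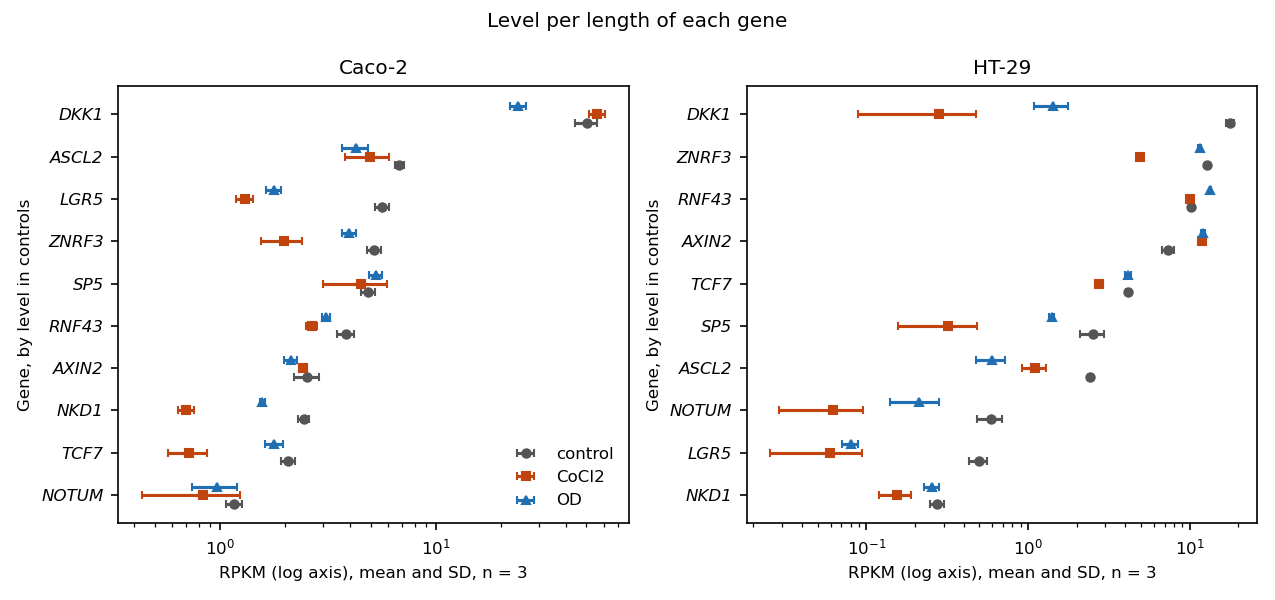
Level per length of each gene in Caco-2 (left) and HT-29 (right), in RPKM on a log axis, as mean and SD of 3 libraries for control, CoCl2 and OD, with genes ordered by their level in the controls. DKK1 is highest in both control groups, and in HT-29 it drops from 17.7 RPKM to 0.282 RPKM with CoCl2 and 1.43 RPKM with OD.

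DKK1 encodes Dickkopf 1, a secreted protein that binds LRP5 and LRP6 and so blocks the Wnt signal (chr10:52314281-52318042, GENCODE v44 on GRCh38). In HT-29 it showed the steepest loss of the 10 genes under either agent. The control libraries held 38.0, 38.2 and 42.0 CPM, the CoCl2 libraries 1.12, 0.346 and 0.412 CPM, and the OD libraries 4.04, 2.68 and 2.82 CPM. The 3 groups did not overlap, and CoCl2 left 5 to 15 counts per library where the controls had 589 to 1118. DKK1 fell 62.5-fold with CoCl2 (log2 fold change -5.97 ± 0.18, FDR = 3.79e-21) and 12.3-fold with OD (-3.62 ± 0.12, FDR = 2.28e-19), and CoCl2 cells lay below OD cells (-2.34 ± 0.29, FDR = 6.19e-08). Leaving out the first CoCl2 library, which held the 15 counts, moved the CoCl2 value to -6.68 and the value against OD to -3.06.

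The same gene behaved otherwise in Caco-2. There the controls held 117, 96.1 and 120 CPM, the CoCl2 libraries 119, 118 and 137 CPM, and the OD libraries 57.4, 55.0 and 48.8 CPM. CoCl2 and control libraries overlapped, and all OD libraries lay below both. No change with CoCl2 was detected (0.17, 95% interval -0.02 to 0.35, FDR = 0.106), and with library size alone as scaling the value turned to -0.15. With OD the gene fell 2.07-fold (-1.05 ± 0.09, FDR = 1.75e-09), which went under the fold limit without the third control library (-0.99) or the third OD library (-0.98). Against OD, CoCl2 cells held 2.32-fold more (1.22 ± 0.09, FDR = 1.54e-10). The response of DKK1 therefore differed between the lines by -6.24 ± 0.23 for CoCl2 (FDR = 2.96e-21) and -2.59 ± 0.17 for OD (FDR = 4.13e-14), each as the log2 change in HT-29 less that in Caco-2. The antisense gene PRKG1-AS1 shares 227 exonic bases with DKK1 and had 0 to 33 counts per library, and whether counting used strand is not given in the sources used here.

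NOTUM, a secreted enzyme that removes the lipid from Wnt proteins (chr17:81952507-81961840), was low in both lines. HT-29 controls held 1.81, 1.37 and 1.95 CPM, OD libraries 0.466, 0.524 and 0.851 CPM, and CoCl2 libraries 0.224, 0.0692 and 0.247 CPM. The 3 groups were separate, but CoCl2 libraries had only 1 to 3 counts. Summed over libraries, 7 counts stood against 105 in control, a ratio of 0.101 after scaling (95% counting interval 0.0395 to 0.215, counting error only). Calls were lower for CoCl2 (-3.25 ± 0.42, FDR = 9.05e-08) and for OD (-1.48 ± 0.29, FDR = 6.34e-05), and lower with CoCl2 than with OD (-1.77 ± 0.53, FDR = 0.00403). In Caco-2, the values were -0.54 with CoCl2 (95% interval -1.11 to 0.03, FDR = 0.0925) and -0.28 with OD (-0.83 to 0.28, FDR = 0.407), and the first CoCl2 library, at 3.75 CPM, lay with the controls while the other two held 2.03 and 1.51 CPM.

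**Figure D2:**
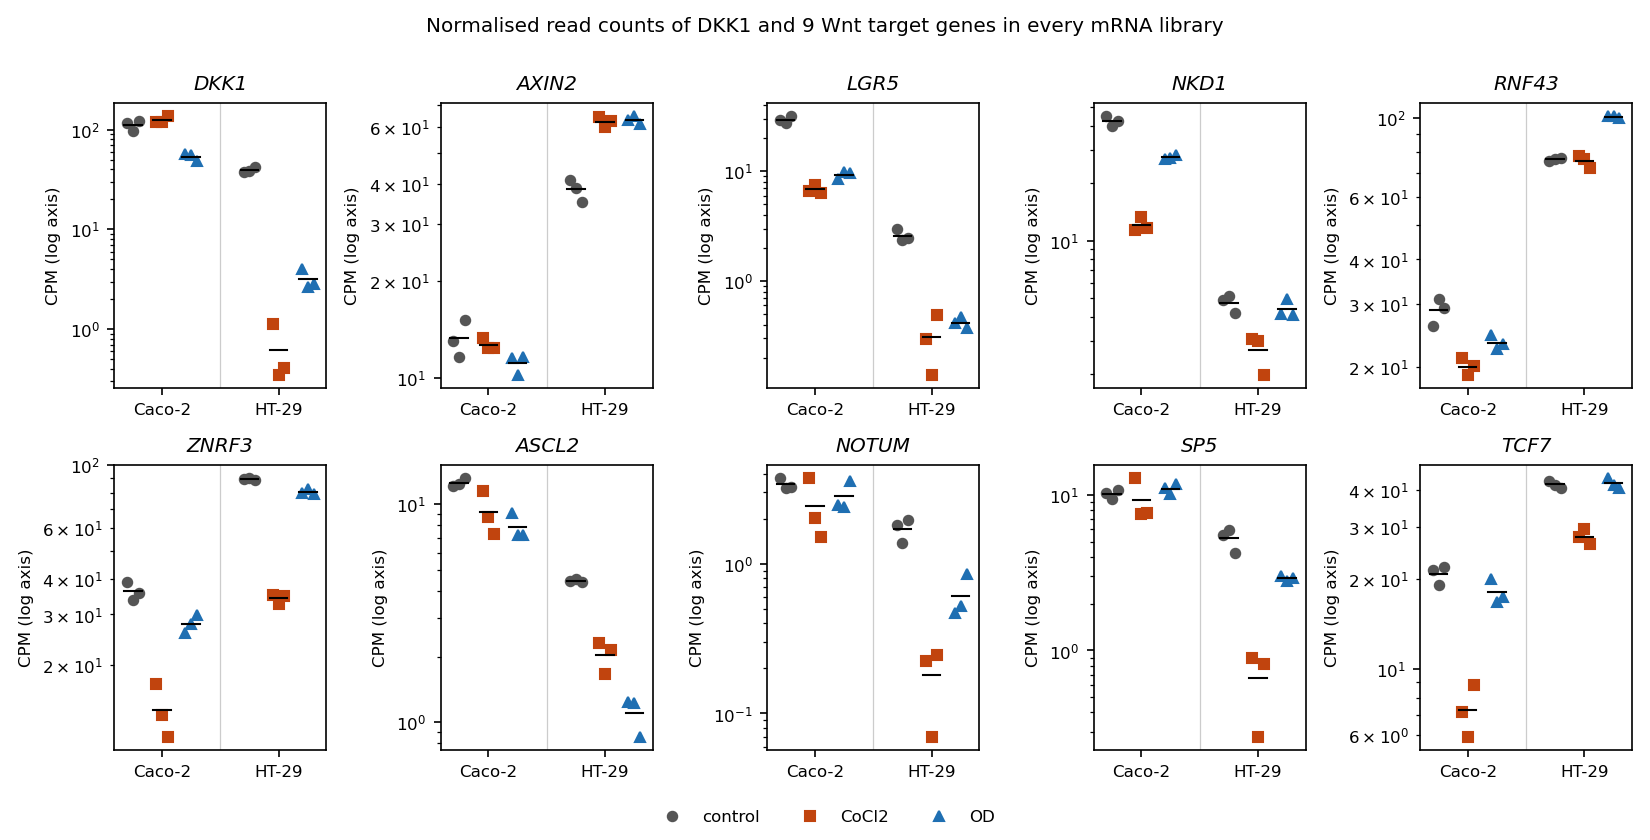
Normalised read counts (CPM, log axis) of the 10 genes in all 18 mRNA libraries, by line and group, with a bar at the mean of 3 libraries. In HT-29 the CoCl2 libraries of DKK1, LGR5, NOTUM and SP5 all lie below the controls, whereas those of AXIN2 lie above them.

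AXIN2 and NKD1 are intracellular brakes. AXIN2 is a scaffold of the destruction complex and a widely used reporter of β-catenin activity (chr17:65528563-65561648). Another protein-coding gene on its strand shares 1316 exonic bases with it, so reads of the pair may be split or shared. It rose with both agents in HT-29, where controls held 41.2, 38.9 and 35.2 CPM, CoCl2 libraries 64.5, 59.9 and 62.7 CPM and OD libraries 63.2, 65.0 and 61.4 CPM. Every treated library lay above every control. AXIN2 rose by 0.71 ± 0.06 with CoCl2 (FDR = 2.6e-11) and 0.73 ± 0.06 with OD (FDR = 1.96e-11) on the log2 scale, below the limit of 1 for a call. The rise with CoCl2 rested on the scaling, since with library size alone it was 0.07 (FDR = 0.267), while that with OD stayed at 0.59. In Caco-2, AXIN2 ran from 10.2 to 15.2 CPM over all 9 libraries, with -0.07 for CoCl2 (95% interval -0.33 to 0.20) and -0.26 for OD (-0.52 to 0.01). The line difference was 0.66 ± 0.13 for CoCl2 (FDR = 4.85e-05) and 0.96 ± 0.13 for OD (FDR = 1.57e-07).

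NKD1, which binds Dishevelled and restrains it (chr16:50548396-50649249), changed most in Caco-2. Controls held 45.1, 39.9 and 42.5 CPM, CoCl2 libraries 11.4, 13.3 and 11.7 CPM, and OD libraries 26.6, 27.1 and 28.0 CPM. The groups formed 3 separate steps. NKD1 fell with CoCl2 (-1.81 ± 0.10, FDR = 1.77e-13) and by less than the fold limit with OD (-0.64 ± 0.09, FDR = 4.93e-06), and the agents differed by -1.17 ± 0.11 (FDR = 2.37e-09). HT-29 had little NKD1, from 4.21 to 5.14 CPM in controls, 1.98 to 3.06 CPM with CoCl2 and 4.10 to 4.95 CPM with OD. There it fell with CoCl2 by 0.80 on the log2 scale (FDR = 0.000178), which passed the fold limit at -1.43 with library size alone, and the OD value was -0.10 (95% interval -0.40 to 0.21, FDR = 0.565).

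At the receptor, LGR5 binds R-spondins, which strengthen Wnt signals, and marks crypt stem cells (chr12:71439798-71586310). It was the one gene of the 10 called lower in all 4 comparisons with control. Caco-2 controls held 29.1, 27.5 and 32.0 CPM, CoCl2 libraries 6.58, 7.56 and 6.38 CPM, and OD libraries 8.47, 9.85 and 9.60 CPM. Both treated groups lay far below control, and CoCl2 just below OD. The fall was 4.32-fold with CoCl2 (-2.11 ± 0.13, FDR = 3.94e-13) and 3.17-fold with OD (-1.66 ± 0.12, FDR = 4.25e-11). In HT-29 controls LGR5 was already scarce, with 43 to 65 counts, or 2.97, 2.35 and 2.44 CPM. It dropped to 0.299, 0.138 and 0.494 CPM with CoCl2 (2 to 6 counts) and 0.414, 0.466 and 0.372 CPM with OD (7 or 8 counts). Treated libraries did not overlap control, and CoCl2 overlapped OD. The log2 fold changes were -3.06 ± 0.34 (FDR = 3.86e-09) and -2.60 ± 0.28 (FDR = 6.9e-09). CoCl2 and OD differed by -0.46 in HT-29, with a wide interval from -1.47 to 0.55.

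RNF43 and ZNRF3 are membrane E3 ligases that clear Frizzled from the cell surface and are held back by R-spondins and LGR proteins. ZNRF3 (chr22:28883572-29057488) fell by like amounts with CoCl2 in both lines. In HT-29, controls held 89.5, 90.2 and 88.3 CPM, CoCl2 libraries 35.1, 32.7 and 34.9 CPM, and OD libraries 79.6, 82.3 and 79.4 CPM. Replicates were tight, and CoCl2 lowered it by -1.38 ± 0.05 (FDR = 8.24e-19), OD by -0.15 ± 0.05 (FDR = 0.00598). Caco-2 controls held 39.1, 33.7 and 35.8 CPM against 17.1, 13.4 and 11.1 CPM with CoCl2 and 25.9, 27.7 and 29.8 CPM with OD. All treated libraries lay below control, by -1.40 ± 0.13 with CoCl2 (FDR = 5.96e-10) and -0.38 ± 0.12 with OD (FDR = 0.00836). For CoCl2 the lines differed by -0.08 (95% interval -0.35 to 0.19, FDR = 0.656), a sign that turned to 0.02 with relative log expression (RLE) factors and in DESeq2. CoCl2 lay below OD by -1.23 in HT-29 (FDR = 2.63e-17) and -1.02 in Caco-2 (FDR = 3.61e-07), the latter at -0.87 without the third CoCl2 library and -0.97 without the third OD library.

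RNF43 (chr17:58353676-58417595) passed no call against control. In Caco-2 it fell by 0.52 on the log2 scale with CoCl2 (FDR = 0.000104) and by 0.30 with OD (FDR = 0.0162), from 26.1 to 31.1 CPM in controls to 18.9 to 21.1 and 22.3 to 24.5 CPM. HT-29 controls held 75.5, 76.7 and 77.4 CPM, CoCl2 libraries 78.0, 76.8 and 72.4 CPM, and OD libraries 101, 101 and 99.9 CPM. CoCl2 overlapped control, while OD lay above both. RNF43 rose by 0.40 ± 0.05 with OD in HT-29 (FDR = 3.33e-08), and with CoCl2 the value was -0.02 (95% interval -0.12 to 0.09), or -0.65 with library size alone. A readthrough gene on the same strand shares 4326 exonic bases with RNF43, so the reads of the pair may be split or shared.

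ASCL2, SP5 and TCF7 are transcription factors. ASCL2, a basic helix-loop-helix factor of intestinal stem cells (chr11:2268498-2270588), held 4.45, 4.54 and 4.39 CPM in HT-29 controls, 2.32, 1.66 and 2.14 CPM with CoCl2, and 1.24, 1.22 and 0.851 CPM with OD. This was the one gene lower with OD than with CoCl2 in HT-29 (CoCl2 less OD 0.87, FDR = 0.00201, under the fold limit and 1.02 without the second CoCl2 library). The log2 fold changes were -1.13 ± 0.18 with CoCl2 (FDR = 3.02e-06) and -2.01 ± 0.19 with OD (FDR = 6.36e-10), the former at -0.99 without the second CoCl2 library. In Caco-2 it fell by less, -0.47 with CoCl2 (FDR = 0.00984) and -0.67 with OD (FDR = 0.000932). The OD response differed between the lines by -1.35 ± 0.26 (FDR = 7.35e-05).

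SP5, a zinc finger factor and direct β-catenin target (chr2:170715337-170718078), held 5.55, 5.96 and 4.21 CPM in HT-29 controls. It held 0.896, 0.277 and 0.823 CPM with CoCl2, which is 4 to 12 counts, and 3.00, 2.79 and 2.93 CPM with OD. The 3 groups were separate. SP5 fell 7.82-fold with CoCl2 (-2.97 ± 0.26, FDR = 5.86e-11) and by less than the fold limit with OD (-0.82 ± 0.17, FDR = 0.000168), a gap of -2.15 ± 0.30 between the agents (FDR = 2.79e-07). Caco-2 showed no detected change, with -0.14 for CoCl2 (95% interval -0.49 to 0.21) and 0.11 for OD (-0.23 to 0.45), the latter -0.04 with library size alone. The first CoCl2 library of Caco-2 stood apart at 12.8 CPM beside 7.48 and 7.63 CPM in the other two.

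TCF7, the T cell factor TCF-1 that partners β-catenin on DNA (chr5:134114681-134151865), fell in Caco-2 with CoCl2. Controls held 21.5, 19.2 and 22.0 CPM, CoCl2 libraries 7.17, 5.89 and 8.82 CPM, and OD libraries 20.0, 16.7 and 17.4 CPM. CoCl2 was separate from both other groups, which overlapped. The fall with CoCl2 was 2.83-fold (SE 0.14 on the log2 scale, FDR = 1.34e-09), and the OD value was -0.21 (95% interval -0.47 to 0.05, FDR = 0.17), with -1.29 ± 0.14 between the agents (FDR = 5.32e-08). In HT-29, TCF7 fell from 40.5 to 42.8 CPM in controls to 26.3 to 29.4 CPM with CoCl2 (-0.58 ± 0.06, FDR = 3.82e-09; -1.21 with library size alone), and the OD value was 0.02, with an interval from -0.10 to 0.13 and a sign that depended on the scaling. SKP1 on the other strand shares 210 exonic bases with TCF7 and had 1634 to 4582 counts per library.

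**Figure D3:**
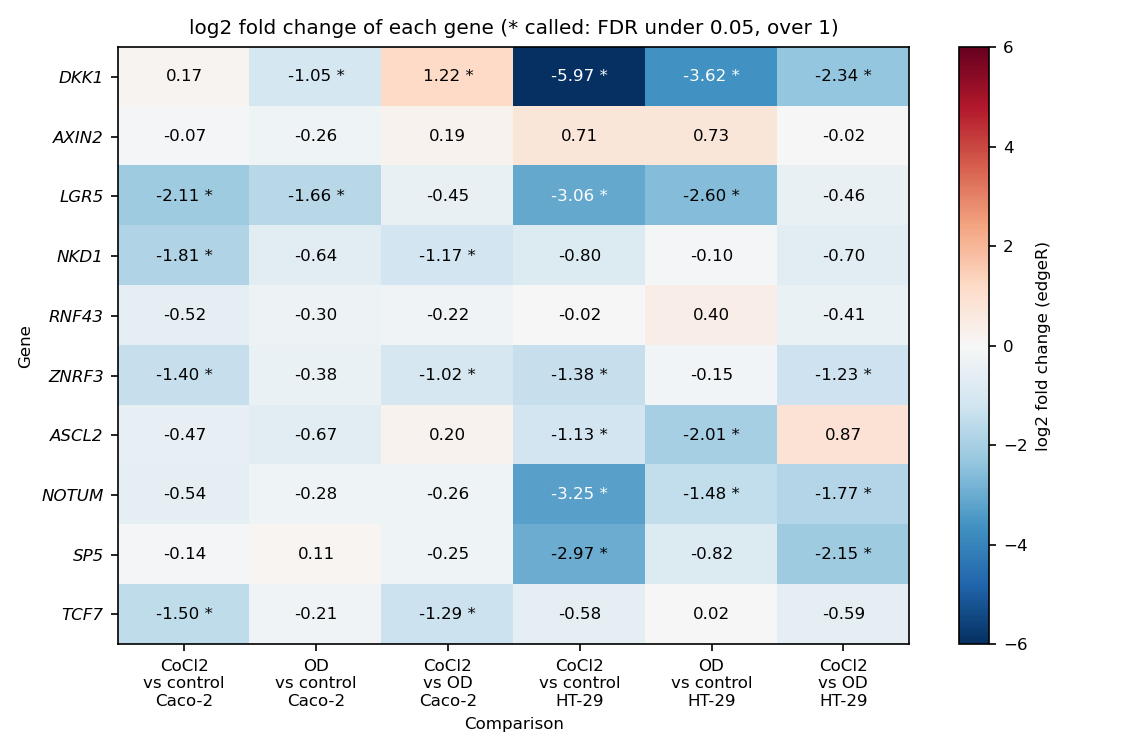
Fitted log2 fold change of each gene (rows) in the 6 comparisons within lines (columns), with an asterisk where the FDR was under 0.05 and the size over 1. DKK1 in HT-29 holds the largest falls, -5.97 with CoCl2 and -3.62 with OD, and AXIN2 and RNF43 hold the positive values in HT-29 against control beyond 0.1.

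Counted together, the 10 genes were called in the direction of less RNA in all 4 comparisons with control and never higher. In Caco-2, CoCl2 lowered 4 of 10 (LGR5, NKD1, ZNRF3 and TCF7), where 14.2% of all 16034 genes tested were called lower and 9.13% higher. OD lowered 2 of 10 there (DKK1 and LGR5), beside 7.27% lower and 4.43% higher. In HT-29, CoCl2 lowered 6 of 10 (DKK1, LGR5, ZNRF3, ASCL2, NOTUM and SP5), beside 23.9% of 15812 genes lower and 17.4% higher. OD lowered 4 of 10 in HT-29 (DKK1, LGR5, ASCL2 and NOTUM), beside 7.57% lower and 9.5% higher. The median log2 fold change of the 10 genes in Caco-2 was -0.53 (CoCl2) and -0.34 (OD), and that in HT-29 was -1.26 and -0.48, where the medians of all genes were -0.03, -0.02, -0.03 and 0.01. Both agents were set against the same control libraries in each line, so their counts are not independent of each other. Since the 10 genes were chosen with earlier results of these data known, an excess over the shares of all genes is a description and not a test.

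Set directly against each other, CoCl2 left 3 of 10 genes lower than OD in Caco-2 (NKD1, ZNRF3 and TCF7) and DKK1 higher, beside 6.44% of all genes called lower and 5.21% higher. In HT-29, 4 of 10 were lower with CoCl2 (DKK1, ZNRF3, NOTUM and SP5) and none higher, beside 19.2% lower and 10.8% higher. The doses were 300 µM and 5 µM, so these contrasts describe the treatments as given and not the agents at matched strength.

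The difference between the lines was called for 4 of 10 genes with CoCl2, all in the direction of a deeper fall in HT-29 (DKK1, LGR5, NOTUM and SP5), beside 13.8% of all genes called in that direction and 7.79% in the other. SP5 differed by -2.93 ± 0.35 (FDR = 1.22e-08) and NOTUM by -2.81 ± 0.59 (FDR = 0.000148). LGR5 differed by -1.05 ± 0.38 (FDR = 0.0221), a call that was lost in DESeq2 (FDR = 0.0889), with RLE factors (-0.95) and without the low-count filter (FDR = 0.0547). It was also lost without the second CoCl2 library of Caco-2 (-0.98), the first (FDR = 0.0614) or second CoCl2 library of HT-29 (-0.68, FDR = 0.205) or the first HT-29 control (-0.97). With OD, 3 of 10 were called (DKK1, ASCL2 and NOTUM), beside 6.24% in that direction and 8.96% in the other. NOTUM differed by -1.22 ± 0.43 with OD (FDR = 0.02), which was lost in DESeq2 (FDR = 0.0529) and on leaving out the third OD library of Caco-2 (FDR = 0.0618), the third control (FDR = 0.0671), the first OD (FDR = 0.0719) or the second OD library (FDR = 0.055) of HT-29. In the other direction, NKD1 and TCF7 fell less in HT-29 with CoCl2, by 0.90 ± 0.20 (FDR = 0.000329) and 0.81 ± 0.15 (FDR = 1.69e-05), under the fold limit. NKD1 passed that limit with RLE factors (1.01).

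**Figure D4:**
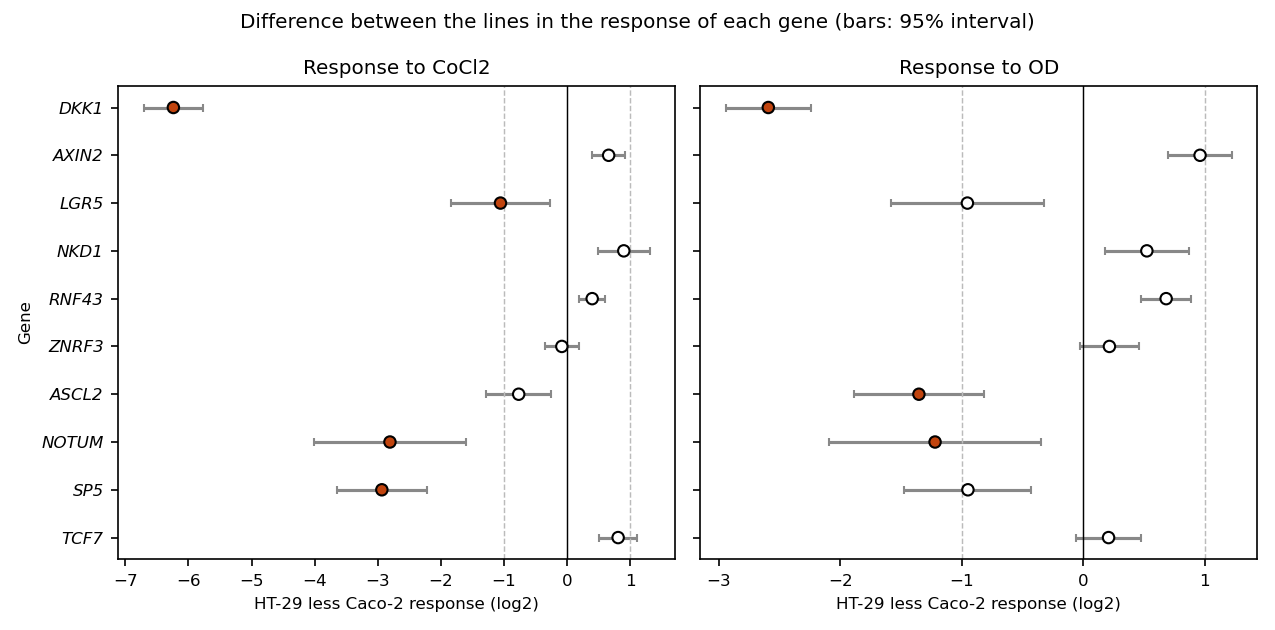
Difference between the lines in the log2 response of each gene to CoCl2 (left) and OD (right), as the change in HT-29 less that in Caco-2, with 95% intervals. Filled points were called (FDR under 0.05 and size over 1, dashed lines), and DKK1 lies farthest from 0 in both panels, at -6.24 and -2.59.

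A further 129 genes of the pathway were counted in 7 lists, of which 94 (Caco-2) and 86 (HT-29) had counts high enough to be tested. CoCl2 raised 15 and lowered 11 in Caco-2, and raised 10 and lowered 31 in HT-29. OD raised 7 and lowered 3 in Caco-2, and raised 11 and lowered 18 in HT-29. As shares, CoCl2 raised 16.0% and lowered 11.7% in Caco-2, where all genes gave 9.13% and 14.2%, and raised 11.6% and lowered 36.0% in HT-29, where all genes gave 17.4% and 23.9%. OD raised 7.45% and lowered 3.19% in Caco-2, beside 4.43% and 7.27%, and raised 12.8% and lowered 20.9% in HT-29, beside 9.5% and 7.57%. Among 22 other Wnt targets tested in HT-29, CoCl2 lowered 11 and raised 2, and OD lowered 10 and raised 3. The corresponding counts of 21 in Caco-2 were 2 lower and 8 higher with CoCl2, and 0 lower and 2 higher with OD. MYC, a driver of cell growth, held 162 ± 5.79 CPM in HT-29 controls, 44.4 ± 1.78 CPM with CoCl2 and 74.7 ± 3.01 CPM with OD (SD, n = 3), falls of -1.87 (FDR = 1.7e-21) and -1.12 (FDR = 1e-16). In Caco-2 MYC instead rose from 44.4 ± 4.18 to 104 ± 8.64 CPM with CoCl2 (1.23, FDR = 1.7e-11). CCND1, which encodes cyclin D1, rose in Caco-2 from 92.7 ± 5 to 218 ± 8.6 CPM with CoCl2 and 242 ± 13.7 CPM with OD (1.23 and 1.39). It fell in HT-29 from 76.2 ± 3.82 to 13.3 ± 0.83 CPM with CoCl2 (-2.52) and to 41.0 ± 2.72 CPM with OD (-0.89). The line difference was -3.21 for MYC and -3.86 for CCND1 with CoCl2 and -1.42 and -2.29 with OD, each with an FDR of at most 5.7e-13. With library size alone, MYC and CCND1 rose in Caco-2 with CoCl2 by 0.91 each, under the fold limit.

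EDN1, which encodes endothelin 1, shared with DKK1 a steep fall in HT-29 with both agents, from 25.5 ± 1.44 to 2.50 ± 0.49 CPM with CoCl2 (-3.35) and 2.60 ± 0.097 CPM with OD (-3.29). In Caco-2 it rose with CoCl2 from 5.69 ± 0.632 to 13.2 ± 0.181 CPM (1.21), a call lost with library size alone (0.89) and in limma on the deposited log2 values (0.95). PROX1, a homeobox factor, went the other way under OD in HT-29, where 15.0 ± 0.836 CPM became 52.4 ± 3.11 CPM (1.80, FDR = 3.9e-18).

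The list of intestinal stem cell genes, which shares some genes with the other lists, had 8 of 10 tested genes lower with CoCl2 in HT-29 and 4 of 10 with OD, and none higher. Of all genes tested in HT-29, 23.9% were called lower with CoCl2 and 7.57% with OD, and 17.4% and 9.5% higher. CDCA7, a chromatin-associated gene, fell from 144 ± 8.88 to 27.4 ± 0.704 CPM with CoCl2 (-2.39) and 57.1 ± 3.09 CPM with OD (-1.33). PTPRO, a receptor-type phosphatase, fell from 21.3 ± 2.89 to 2.61 ± 0.667 and 2.91 ± 0.1 CPM, and had 0 counts in all Caco-2 libraries. In Caco-2, 12 genes of the list were tested, of which CoCl2 lowered 2 and raised 1 and OD lowered 0 and raised 1. With CoCl2 the shares, 16.7% lower and 8.33% higher, were near the 14.2% and 9.13% of all genes in Caco-2. With OD, 7.27% of all genes were lower and 4.43% higher there. EPHB2, a guidance receptor of crypt cells, fell there with CoCl2 from 29.4 ± 4.62 to 12.4 ± 1.63 CPM (-1.25). OLFM4 had at most 9 counts in any library and was not tested.

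A list of inhibitors outside the 10 genes held secreted proteins and also membrane proteins such as KREMEN1 and TRABD2A. Of these inhibitors 7 were tested in HT-29, of which CoCl2 lowered 4 and raised 2 (23.9% and 17.4% of all genes), and OD lowered 2 and raised 2 (7.57% and 9.5%). The OD calls of SOSTDC1 (-1.02) and TRABD2A (-1.01) in HT-29 each fell under the fold limit in 2 of the 6 fits without 1 library. That of KREMEN1 with CoCl2 (-1.01) did so in 4 of 6. With OD, KREMEN1 instead rose in HT-29 from 16.5 ± 1.07 to 37.5 ± 1.94 CPM. Of 10 in Caco-2, CoCl2 lowered 2 and raised 3 (14.2% and 9.13% of all genes), and OD raised 1 and lowered 0 (4.43% and 7.27%). The difference between the lines itself was called for 5 of 11 with CoCl2 and 2 of 11 with OD, each a lower value in HT-29. Of all genes, 13.8% (CoCl2) and 6.24% (OD) were called in that direction. SOSTDC1, a secreted binder of LRP receptors, fell in HT-29 from 9.61 ± 1.17 to 0.491 ± 0.149 CPM with CoCl2 (-4.23, FDR = 1.2e-15). TRABD2A, a membrane protease that cleaves Wnt, fell from 9.0 ± 0.7 to 1.24 ± 0.195 CPM (-2.84, FDR = 2.7e-14). DKK4, a relative of DKK1, rose in Caco-2 from 0.927 ± 0.0492 to 2.42 ± 0.386 CPM with CoCl2 (1.37) and to 2.34 ± 0.835 CPM with OD (1.34), and had 0 counts in all HT-29 libraries. Caco-2 controls had only 14 to 15 counts of DKK4, and both calls were lost in limma on the deposited log2 values (0.84 and 0.77). WNT11, a ligand, rose in Caco-2 with both agents (1.32 and 1.15) and fell in HT-29 with both (-1.49 and -2.19), although both rises were at or under the limit of 1 with library size alone and the OD rise was 0.98 without the second OD library.

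Of 13 receptor and R-spondin genes tested in Caco-2, each agent lowered 2 and raised 0, and of 14 in HT-29 CoCl2 lowered 4 and raised 1 and OD lowered 2 and raised 1. ROR1, a Wnt receptor kinase, fell in all 4 comparisons with control, from 71.5 ± 3.48 to 9.09 ± 1.14 CPM with CoCl2 in HT-29 (-2.99). With CoCl2 the shares of receptor genes lower, 15.4% (Caco-2) and 28.6% (HT-29), were near the 14.2% and 23.9% of all genes. With OD they were 15.4% and 14.3%, beside 7.27% and 7.57% of all genes. The shares higher, 0% and 7.14% with each agent, were under those of all genes (9.13% and 17.4% with CoCl2, 4.43% and 9.5% with OD). Among ligands and their secretion genes, CoCl2 lowered 2 and raised 2 of 11 in Caco-2 and lowered 2 and raised 1 of 8 in HT-29, and OD lowered 1 and raised 3 in each line. With CoCl2 these were 18.2% lower and 18.2% higher in Caco-2 (14.2% and 9.13% of all genes), and 25% and 12.5% in HT-29 (23.9% and 17.4%). OD raised 27.3% of the ligand list for Caco-2, then 37.5% for HT-29, beside 4.43% and 9.5% of all genes. It lowered 9.09% and 12.5%, beside 7.27% and 7.57%. These shares rest on few calls. WNT7B in Caco-2 (1.44, with 4 to 11 counts in controls) was lost in DESeq2 (FDR = 0.0517). It was also lost in 3 of the 6 fits without 1 library (FDR up to 0.129). WNT2B in HT-29 (1.03) fell to 0.99 in 1 such fit.

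The core machinery was called in few places. Of 15 destruction complex and Dishevelled genes, CoCl2 raised 1 and lowered 0 in Caco-2 and raised 3 and lowered 2 in HT-29, while OD lowered 0 in either line and raised 1 (HT-29 only). Of all genes, CoCl2 raised 9.13% and lowered 14.2% in Caco-2, against 17.4% raised and 23.9% lowered in HT-29. OD raised 4.43% and lowered 7.27% of all genes in Caco-2, and raised 9.5% and lowered 7.57% in HT-29. Of the 3 raised by CoCl2 in HT-29, DVL3 (1.01) fell under the fold limit in DESeq2 (0.997), without the low-count filter (0.95) and with 2 groups only (0.97). With library size alone DVL3 was at 0.37 and GSK3B at 0.44, and in limma at 0.86 and 0.94. CTNNB1, which encodes β-catenin, rose in HT-29 from 209 ± 14.1 to 336 ± 12 CPM with CoCl2 (0.69, FDR = 2.4e-12), under the fold limit. With library size alone as scaling, the median of all genes in that comparison moved by -0.63, a shift close to the size of this rise. Of 16 TCF/LEF factors and co-regulators tested in Caco-2, CoCl2 lowered 2 and raised 1 and OD changed 0, and of 14 in HT-29 CoCl2 lowered 2 and raised 1 and OD raised 1 and lowered 0. With CoCl2 these were 12.5% lower and 6.25% higher for Caco-2, then 14.3% and 7.14% for HT-29, all under the shares of all genes. HBP1, a repressor of TCF-driven genes, rose with CoCl2 in both lines, from 59.9 ± 1.21 to 154 ± 16.1 CPM in Caco-2 (1.36) and from 52.4 ± 3.35 to 336 ± 4.97 CPM in HT-29 (2.68). LEF1 fell in Caco-2 with CoCl2 from 6.18 ± 0.888 to 2.16 ± 0.655 CPM (-1.54, FDR = 1.4e-06) and had at most 7 counts in any HT-29 library.

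**Figure D5:**
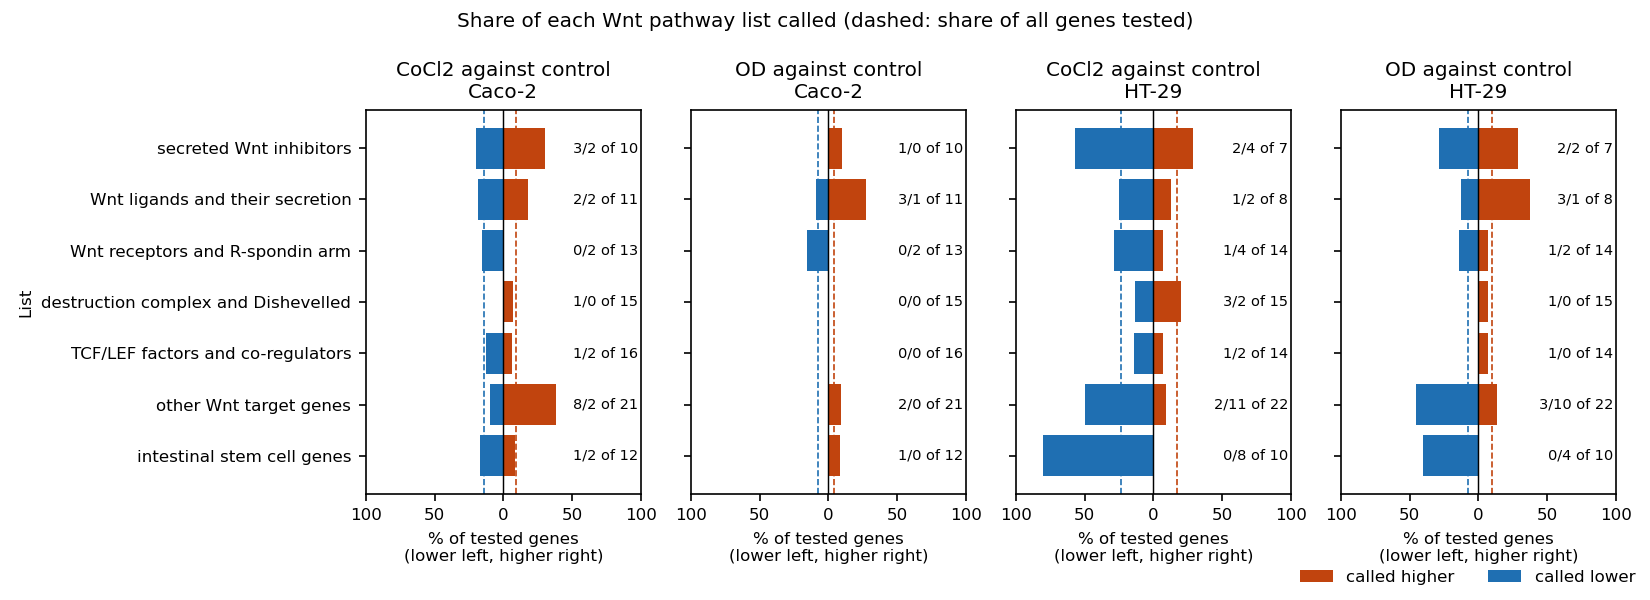
Share of the tested genes of each Wnt pathway list called higher (right) or lower (left) in the 4 comparisons with control, in percent, with counts as higher/lower of tested. The list labelled as secreted inhibitors also holds membrane proteins. Dashed lines mark the share of all genes called, and in HT-29 with CoCl2 the stem cell list reaches 80% lower, where all genes gave 23.9%.

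Over the 9 HT-29 libraries, the genes whose log2 levels were most like DKK1, among 10399 genes with a mean of at least 100 counts, were PPIP5K1 (Pearson r = 0.995), SLC26A2 (0.995), SEPHS1 (0.994), ZNF112 (0.993) and NWD2 (0.993). All 5 stood highest in control, lowest with CoCl2 and between them with OD. SLC26A2, a sulfate transporter, for example had means of 11.5, 3.95 and 5.96 CPM in control, CoCl2 and OD. In Caco-2 the nearest of 10376 genes was DYNC1I1 (r = 0.985), at 13.7, 14.3 and 6.39 CPM. These values describe 9 libraries in 3 groups, so any gene that orders the groups in the same way scores high.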

How the data were processed

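Messenger RNA was sequenced in 18 of the series' 36 libraries. The authors deposited raw counts per gene and, in another table, log2 values. By the study's methods and the submitters' processing notes, reads were checked with FastQC 0.11.9, trimmed with cutadapt 2.10 and aligned with STAR 2.7.5b to GRCh38.p13, and genes were counted on GENCODE. The counting tool and its use of strand are not given in the sources used here. Recomputed from the counts, the deposited log2 values were log2 of RPKM plus 1, TMM-scaled within each line. Genes that failed the authors' filter in a line were at 0, which held for 4 of the 10 genes in HT-29 (DKK1, LGR5, NOTUM and SP5). Their gene lengths gave the RPKM used here.

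Counts were tested with edgeR 4.0.16 in R 4.3.3 (filterByExpr, TMM, quasi-likelihood F test, two-sided, Benjamini-Hochberg adjustment over all genes tested). Each line was fitted over its 9 libraries, and line differences and the control comparison over all 18. SE is the log2 fold change over the root of F. The thresholds follow the study, whose tool DESeq2 (1.42.0 here) was an alternative beside limma 3.58.1 on the log2 values, RLE factors, library size alone, no filter, 2 groups only, a replicate block and leaving out each library. The edgeR script was tested on simulated data. Coordinates are from GENCODE v44, and promoters were read with Python 3.11.15. All per-sample columns were matched (0 left over), and the miRNA tables and the bases beyond the promoter windows were not analysed here.

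The genes and lists were chosen with earlier results of these data known. Besides the 10 genes, the text names genes from up to 4 per list and comparison with the largest called change and a mean of at least 100 counts, a few given in advance (CTNNB1, APC, TCF7L2, LEF1, MYC, CCND1, SOX9, DKK4, OLFM4), HIF targets, the 5 genes most like DKK1 and overlapping genes. Replicate numbers did not mark pairs, the labels give 3 biological replicates per group without saying what a replicate was, and floors were set at 3 counts.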

Additional observations from a re-analysis of the deposited data

Results flagged for a closer look

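The response to an agent differed between the lines by more than the fold limit for 5 of the 10 genes, each by the test of the difference itself (edgeR, HT-29 less Caco-2 on the log2 scale). Of all genes, 13.8% were called lower and 7.79% higher in this way with CoCl2, and 6.24% and 8.96% with OD. Without the fold limit, 9 of the 10 genes passed with CoCl2 and 8 with OD, among them AXIN2, NKD1 and RNF43 in the positive direction with both. The shares of all genes above hold with the fold limit only. No share without it is given here, so whether 9 and 8 of 10 exceed that of all genes cannot be said. With CoCl2 the values were -6.24 for DKK1, -1.05 for LGR5, -2.81 for NOTUM and -2.93 for SP5. With OD they were -2.59 for DKK1, -1.35 for ASCL2 and -1.22 for NOTUM. Caco-2 cells were differentiated and HT-29 cells were not described as such, so line and culture state cannot be told apart in any of them. The values for LGR5 with CoCl2 and NOTUM with OD lost their call under some alternatives, and NOTUM had 1 to 3 counts in the CoCl2 libraries of HT-29.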

How the results depend on the processing

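With library size alone as scaling, the median of all genes moved by -0.32 (CoCl2 in Caco-2), -0.15 (OD in Caco-2), -0.63 (CoCl2 in HT-29), -0.14 (OD in HT-29), -0.17 and -0.50 (CoCl2 against OD in Caco-2 and HT-29) and -0.20 (line difference for CoCl2), and by under 0.1 elsewhere. The share of calls that were higher went from 39.1% to 19.7%, 37.9% to 23.3%, 42.1% to 17.2% and 55.7% to 43.4% in the 4 comparisons with control, in the order above, and from 44.7% to 28.3%, 36.0% to 12.9% and 36.0% to 23.2% in the next 3. That scaling turned DKK1 with CoCl2 in Caco-2 to -0.15, SP5 with OD in Caco-2 to -0.043 and TCF7 with OD in HT-29 to -0.12, and gave 41 called list genes in place of 25 for CoCl2 against OD in HT-29. TCF7 with OD in HT-29 was -0.0058 in DESeq2, -0.0051 with RLE factors and -0.0097 in limma. AXIN2 for CoCl2 against OD in HT-29 was 0.0070 with RLE factors, and the line difference of ZNRF3 for CoCl2 was 0.025 with RLE factors and 0.022 in DESeq2. On the deposited log2 values, limma called 1 of the 10 genes for CoCl2 against OD in Caco-2 and 1 in each of the 3 comparisons within HT-29, where 4 of the genes were at 0 in that table by the authors' filter. Those 4 were DKK1, LGR5, NOTUM and SP5, so limma could not check their falls in HT-29. Without the fold limit, 6 genes passed for OD in Caco-2, 8 for OD and 8 for CoCl2 against OD in HT-29, and 9 and 8 for the line differences with CoCl2 and OD. The share of all genes that passed without the limit is not given here, so these counts cannot be set against it. Leaving out 1 library at a time moved the count for OD in Caco-2 between 1 and 2 and that for the OD line difference between 2 and 5 (5 without the third Caco-2 control). It also took some small values through 0, namely AXIN2 (-0.15 to 0.037) and SP5 (-0.41 to 0.00031) for CoCl2 in Caco-2, NOTUM for CoCl2 against OD in Caco-2 (-0.68 to 0.021), RNF43 with CoCl2 (-0.030 to 0.021), TCF7 with OD (-0.020 to 0.043) and AXIN2 for CoCl2 against OD (-0.041 to 0.015) in HT-29, and ZNRF3 in the CoCl2 line difference (-0.24 to 0.085). The cause of these changes was not tested. With a replicate block the counts of called genes were 4, 2 and 4 in Caco-2 (CoCl2, OD, CoCl2 against OD), 6, 4 and 4 in HT-29, 4 and 3 for the line differences and 8 between the controls, the same as without it. Same-numbered libraries did not deviate together (r from -0.055 to 0.068 in Caco-2 and from -0.037 to 0.025 in HT-29, 0 of 9 pairs over 0.1 in either), so the numbers were not taken as pairs. No call among list genes named changed sign under any alternative. Depth limits the values of genes with few counts, in HT-29 with CoCl2 those of NOTUM (1 to 3 counts per library), LGR5 (2 to 6), SP5 (4 to 12) and DKK1 (5 to 15), and with OD those of LGR5 (7 or 8) and NOTUM (9 to 16).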
